A study of Mus musculus with 8 samples.

Results

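The genes described here encode the proteins that carry calcium across the surface membrane of the heart muscle cell. They are 4 pore-forming channel genes (Cacna1c, Cacna1d, Cacna1g and Cacna1h), 2 auxiliary channel subunit genes (Cacnb2 and Cacna2d1), the sodium-calcium exchanger gene Slc8a1 and 2 plasma membrane calcium pump genes (Atp2b1 and Atp2b4). They were taken by function, as a list of 9 of the 55487 gene identifiers in the count files, and all 9 passed the filter on low counts that left 14695 genes for testing. They were chosen by what their proteins do, with no threshold on a measured value, but at a time when results on these libraries were already known. Among those were the low level of Cacna1h in male KO hearts and the place of Atp2b1 near the top of a calcium handling list. The KO against NLC values below therefore describe the genes, and their p-values are no independent evidence.

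The study profiled mRNA of the heart's left ventricle in C57BL/6 mice aged 12 weeks. The 4 KO animals (CM-ADGRF5-KO) are labelled GPR116-/-, marked as myocyte-specific. GPR116 is another name for ADGRF5, an adhesion G protein-coupled receptor. The 4 NLC animals are labelled wild-type. In both groups replicates 1 and 2 were male and replicates 3 and 4 female. The labels state neither what drove the deletion nor what NLC stands for.

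In each heartbeat the L-type channel lets in the calcium that triggers release from the sarcoplasmic reticulum, and the sodium-calcium exchanger removes the same calcium again. T-type channels open at more negative voltages and are best known from pacemaker and conduction cells and from the fetal ventricle. Plasma membrane calcium pumps move little of the calcium of a beat in rodents and are studied more for local signalling.

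The libraries held 26.59 to 39.62 M gene reads in the KO group and 25.33 to 28.35 M in the NLC group. A count of 3 reads corresponded to 0.0793 to 0.122 CPM (reads per M gene reads, after scaling), well under the level of any of the 9 genes. Cardiomyocyte markers summed to 78431.8 to 90831.4 CPM in KO and 74950.0 to 87886.0 CPM in NLC libraries and were thus abundant in all 8. Adgrf5 itself lay at 203.0 to 239.8 CPM in KO and 218.2 to 257.0 CPM in NLC libraries (log2 fold change -0.05, SE 0.0754, edgeR adjusted p = 0.782). Endothelial cells also transcribe this gene, so a whole-tissue count cannot check its loss from myocytes, and KO and NLC below mean the libraries so labelled. Atrial markers summed to 593.3 to 1701.0 CPM in KO and 534.8 to 6509.5 CPM in NLC libraries, with the highest sum in NLC replicate 4 and none of the 10 markers at 0 in all libraries. In some libraries Nppa was a large part of this sum, at 864.0 of 1033.4 CPM in KO replicate 1 and 378.9 of 534.8 CPM in NLC replicate 3. The atrial marker Myl7 stood at 0.264 and 0.371 CPM there, so the sum does not rank the libraries as Myl7 does.

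Per length of merged exons, the 9 genes covered a wide range of levels. Slc8a1 was highest at 14.1 ± 2.98 CPM per kb (SD over 8 libraries), followed by Cacna1c at 9.91 ± 0.617 and Cacna2d1 at 9.04 ± 1.35. Slc8a1 stood above Cacna1c in 8 of 8 libraries, whereas the ranges of Cacna1c and Cacna2d1 overlapped and Cacna1c was the higher of the pair in 6. Cacnb2 (4.80 ± 0.396), Cacna1g (4.33 ± 0.847) and Atp2b1 (3.12 ± 0.327) formed a middle tier in which each gene's range overlapped that of the next. Atp2b4 lay at 1.71 ± 0.169 CPM per kb and overlapped in range with Cacna1h at 0.825 ± 0.510, although it was higher in all 8 libraries. Cacna1d was lowest at 0.205 ± 0.0508 CPM per kb, apart from all the others. The order of the upper genes depends on the length used, since by the longest annotated transcript Cacna1c came first (16.0 CPM per kb), ahead of Cacna2d1 (15.1) and Slc8a1 (14.4).

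**Figure D1:**
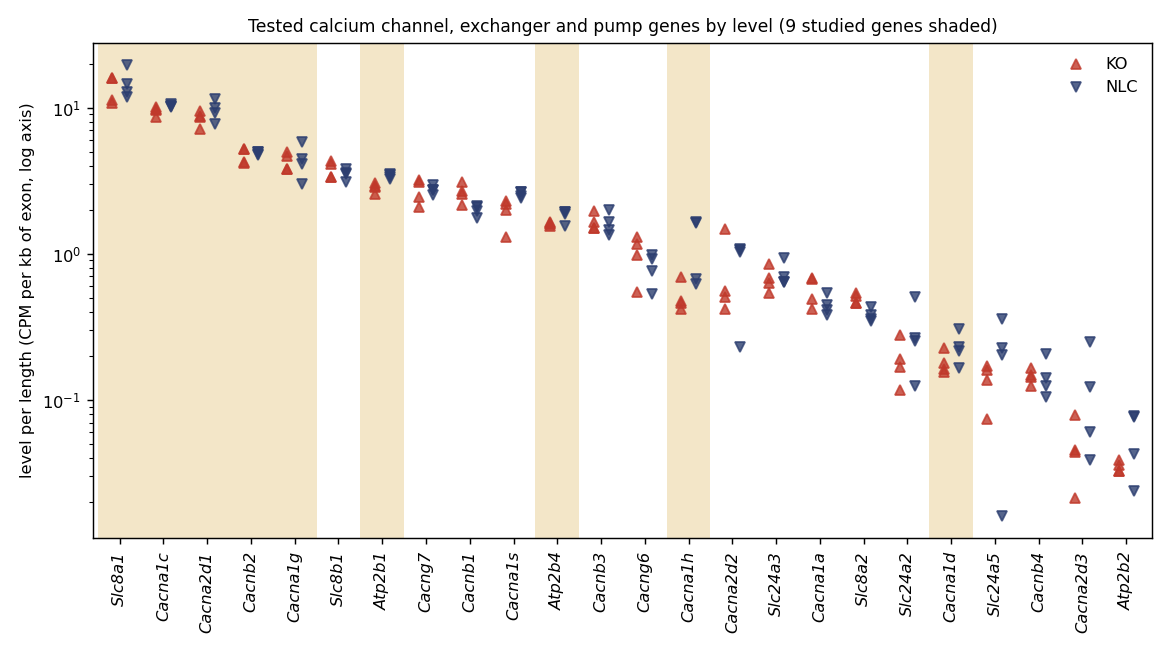
Level per kb of merged exon (log axis) of the tested voltage-gated calcium channel, exchanger and pump genes, ordered by their mean. Each triangle is 1 library, KO to the left of NLC, and shaded columns mark the 9 genes described here. Slc8a1, Cacna1c, Cacna2d1, Cacnb2 and Cacna1g are the 5 highest, and Cacna1d lies near the low end.

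The levels per kb of merged exon were also expressed as shares of the summed level of each family. Cacna1c made up 55.7 ± 2.05% of the summed pore subunit level in KO and 54.3 ± 3.79% in NLC libraries (SD, n = 4 each). Cacna1g followed with 25.3 ± 3.74% in KO and 22.5 ± 4.12% in NLC. Cacna1s, the pore subunit of skeletal muscle, made up 11.3 ± 2.21% in KO and 13.5 ± 1.59% in NLC. Slc8a1 supplied 96.1 ± 0.875% of the summed level of Slc8a1, Slc8a2 and Slc8a3 in KO and 97.1 ± 0.570% in NLC. Other exchanger genes, such as the potassium-dependent ones, were not part of that sum. Cacna2d1 made up 91.7 ± 4.50% of the alpha2delta level in KO and 91.2 ± 3.89% in NLC. By this length the pump level was shared, with Atp2b1 at 62.8 ± 1.90% in KO and 64.0 ± 2.54% in NLC. Atp2b4 made up 35.4 ± 1.80% in KO and 34.2 ± 2.37% in NLC. The shares depend on the length used. By the longest annotated transcript Atp2b1 lay at 6.08 CPM per kb in KO and 7.23 in NLC libraries. Atp2b4 then lay at 1.68 in KO and 1.90 in NLC, a wider gap than by merged exons. Family shares by the longest transcript were not computed.

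Across all 8 libraries, none of the 9 genes passed the edgeR quasi-likelihood test for KO against NLC with sex as a covariate (Benjamini-Hochberg adjusted p under 0.05 over all 14695 genes). DESeq2 also called 0 of 9, and 2 of 9, Atp2b1 and Cacna1h, had an unadjusted p under 0.05, both with lower levels in KO. Over all tested genes 0.102% were called and 6.18% were lower at that unadjusted level. All 9 fitted log2 fold changes were below 0, as were 51.0% of those of all tested genes and 68.0% to 78.5% of those in the classes of genomic span that hold the 9 genes. Their median was -0.17, beside -0.005 for all tested genes. Without NLC replicate 4, Cacna1g was at 0.023 and the other 8 stayed below 0. Atrial markers had fold changes of the same sign, with all 9 tested below 0 (median -0.75), and 7 of 9 below 0 in males (median -0.85), although none was called. The markers above 0 in males were Nppa at 1.02 (SE 0.831) and Nr2f2 at 0.27 (SE 0.219). Myl7, the atrial myosin light chain, was measured at 0.264, 8.75, 182.8 and 8.12 CPM in KO, against 40.7, 156.6, 0.371 and 983.4 CPM in NLC libraries, and thus varied widely within both groups. The part of atrial tissue in the values of the 9 genes was not tested. The 4 KO libraries lay below the 4 NLC libraries without overlap for Cacna1c and Atp2b1, a pattern shown by 3.03% of all tested genes. In whole tissue, fewer cells of a type and less RNA per cell cannot be told apart.

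**Figure D2:**
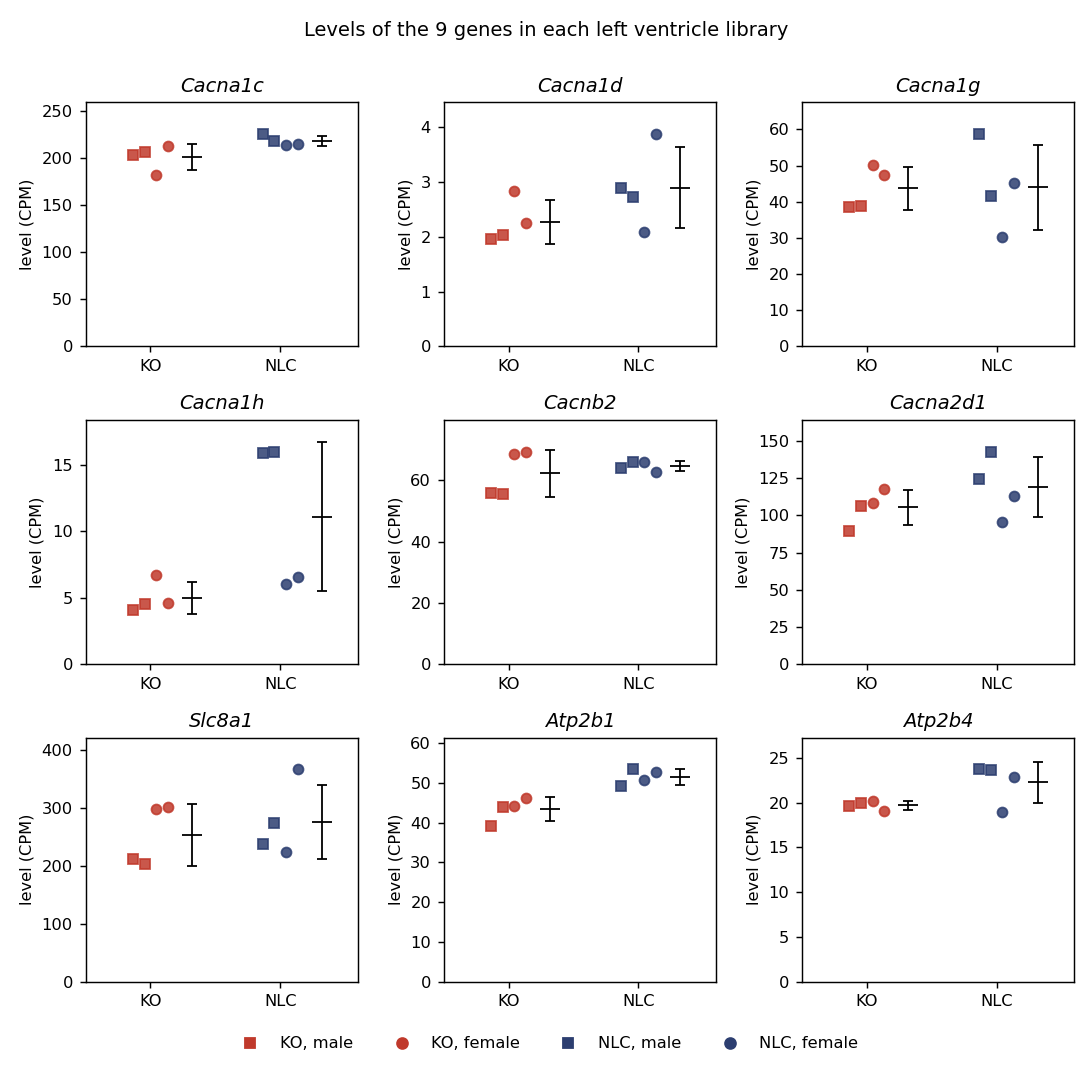
Level in CPM of the 9 genes in each library, KO left of NLC in every panel, with males as squares, females as circles, and the mean ± SD (n = 4) in black. The groups do not overlap for Cacna1c and Atp2b1, and the 2 male NLC libraries stand apart for Cacna1h.

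Cacna1c encodes Cav1.2, the pore of the main L-type channel of ventricular muscle. It was measured at 203.6, 206.6, 182.3 and 213.2 CPM in KO replicates 1 to 4, against 225.7, 218.8, 214.2 and 215.2 CPM in NLC replicates 1 to 4. The lowest value was that of a KO female, and the highest KO library lay just under the lowest NLC library. Its log2 fold change of -0.12 (SE 0.0681) had an edgeR adjusted p of 0.487 and a 95% interval that corresponds to a change of -17.0% to 2.40% from the NLC level. It was the same size in males (-0.12) and females (-0.12), and without KO replicate 3 it came to -0.0735 over all. The female value moved to -0.0095 without KO replicate 3 and to -0.24 without KO replicate 4, and so depends on single libraries. Cacna1c lies on chromosome 6 at 118587240 to 119196418, minus strand, of GRCm38, spans 609.2 kb and has 27 annotated transcripts. The counts are per gene and do not separate its start sites.

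Promoter windows of Cacna1c are shown because it is one of the 2 genes whose groups did not overlap and because its start sites differ in base content. The first is the most upstream window in the RefSeq table (chr6:119196360-119196659, minus strand, GRCm38.p6) and the second is the middle of 3 windows (chr6:119108446-119108745, minus strand). The third, furthest downstream (chr6:118757925-118758224, minus strand), is not printed. Each runs from 250 bases before to 50 bases after a start. Capitals mark matches to 4 motifs, searched on both strands with overlaps counted. The Sp1 motif was searched as GGGCGG. The TATA box was searched as TATAAA in the same way. The letters CACGTG stand for the E-box. The letters AGATAA stand for the motif bound by GATA-type factors in the lines that follow.
Cacna1c, upstream start: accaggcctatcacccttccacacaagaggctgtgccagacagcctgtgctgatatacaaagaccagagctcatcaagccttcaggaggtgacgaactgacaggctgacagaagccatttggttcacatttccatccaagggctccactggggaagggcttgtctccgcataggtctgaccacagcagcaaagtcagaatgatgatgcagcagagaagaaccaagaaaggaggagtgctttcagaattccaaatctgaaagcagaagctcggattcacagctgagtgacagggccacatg
Cacna1c, middle start: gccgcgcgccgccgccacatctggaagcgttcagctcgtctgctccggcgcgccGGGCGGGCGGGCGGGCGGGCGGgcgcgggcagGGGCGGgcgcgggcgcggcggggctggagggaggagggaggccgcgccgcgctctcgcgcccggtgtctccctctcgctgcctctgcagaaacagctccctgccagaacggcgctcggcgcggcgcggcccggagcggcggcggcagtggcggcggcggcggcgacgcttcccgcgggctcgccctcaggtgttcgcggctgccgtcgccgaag
The upstream window is 51.3% G or C and holds none of the 4 motifs. The middle window is 81.3% G or C and holds the Sp1 letters 6 times. The third window is 51.3% G or C, like the first, and holds none of the 4 motifs. Of all 32851 promoter windows in the table, 35.7% hold the Sp1 letters, 13.6% those of the TATA box, 7.15% those of the E-box and 11.2% those of the GATA factor motif, and the median G or C content is 52.7%. Windows were found for 7 of the 9 genes, Cacna1g and Cacna1h being the others. A match describes letters and does not show that a factor binds there.

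Cacna1d encodes Cav1.3, the L-type pore of sinus node and atrium. This gene was scarce in the ventricle at 1.96, 2.04, 2.84 and 2.25 CPM in KO, against 2.89, 2.73, 2.09 and 3.87 CPM in NLC libraries. These values rest on 59 to 112 reads a library, and the groups overlapped. KO and NLC differed by a log2 fold change of -0.36 (SE 0.208, 95% interval -0.82 to 0.11, edgeR adjusted p = 0.489). Leaving out 1 library moved this to -0.54 without NLC replicate 3 (edgeR adjusted p = 0.158) and to -0.19 without NLC replicate 4 (edgeR adjusted p = 0.761). The gene lies on chromosome 14 at 30039939 to 30491455, minus strand. Its exons share 589 bases with Chdh on the opposite strand, a gene counted at 0 to 11 reads a library, and the strand setting of the counting is not given in the sources used here.

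Cacna1h encodes the T-type pore Cav3.2 and had the largest fold change of the 9 genes. It was measured at 4.07, 4.50, 6.74 and 4.62 CPM in KO replicates 1 to 4, against 15.9, 16.0, 6.04 and 6.54 CPM in NLC replicates 1 to 4. The 2 male NLC libraries stood far above the other 6, while the 2 female NLC libraries lay within the range of the KO group. These levels rest on 123 to 192 reads in KO and 179 to 425 reads in NLC libraries. Over all 8 libraries this came to a log2 fold change of -1.04 (SE 0.309, edgeR adjusted p = 0.288). In males Cacna1h averaged 4.28 CPM in KO and 16.0 CPM in NLC, a log2 fold change of -1.90 (SE 0.184, 95% interval -2.31 to -1.48, edgeR adjusted p = 0.0167). In females it averaged 5.68 CPM in KO and 6.29 CPM in NLC (log2 fold change -0.14, SE 0.185, edgeR adjusted p = 0.980).

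The difference between the male and the female effect of Cacna1h was -1.75 (SE 0.260) and did not pass the edgeR test over all genes (adjusted p = 0.363). DESeq2 gave -1.76 with an adjusted p of 0.000269. With any of the 4 male libraries left out the male difference did not pass, with an edgeR adjusted p of 0.322 without KO replicate 1, 0.0951 without KO replicate 2, 0.102 without NLC replicate 1 and 0.239 without NLC replicate 2. The fold change itself stayed between -1.97 and -1.83 in those fits. Each of them holds a single library in 1 male arm, which is assumed to vary like the other groups. Cacna1h lies on chromosome 17 at 25374285 to 25433783, minus strand, and shares 158 exon bases with Tpsg1 on the opposite strand, a gene counted at 0 to 4 reads a library.

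Cacna1g encodes the other cardiac T-type pore, Cav3.1. Its level was 38.6, 38.7, 50.1 and 47.5 CPM in KO, against 58.7, 41.7, 30.4 and 45.1 CPM in NLC libraries. The sexes ran in opposite directions, with both male KO libraries below both male NLC libraries and both female KO libraries above both female NLC libraries. Over all libraries the log2 fold change was -0.005 (SE 0.177), -0.38 in males (SE 0.193, edgeR adjusted p = 0.339) and 0.37 in females (SE 0.193, edgeR adjusted p = 0.976). The difference between these effects was -0.75 (SE 0.273) and had an edgeR adjusted p of 0.648 and an unadjusted p of 0.0220. Cacna1g lies on chromosome 11 at 94408391 to 94474198, minus strand. The sign of the overall value turned under 5 of 15 alternatives. Per length, Cacna1g exceeded Cacna1h 9.12-fold and 8.28-fold in male KO libraries, against 3.55-fold and 2.51-fold in male NLC libraries. In females the ratio was 7.16 and 9.91 in KO, against 4.85 and 6.65 in NLC libraries. The low male NLC ratios come from the libraries with high Cacna1h, a difference in males that was known when the genes were chosen. How often such ratios of other gene pairs differ was not tested.

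Some markers of the conduction system, where T-type channels are known to be abundant, differed among the same libraries. Cntn2, a Purkinje cell adhesion molecule, was measured at 13.7, 12.8, 27.4 and 16.7 CPM in KO, against 30.7, 25.9, 4.42 and 15.7 CPM in NLC libraries. Hcn4, the pacemaker channel, was measured at 13.6, 12.8, 16.4 and 18.1 CPM in KO, against 22.2, 22.5, 8.54 and 17.1 CPM in NLC libraries. Both were low in the 2 male KO libraries and in NLC replicate 3 and high in the 2 male NLC libraries, and Cntn2 was also high in KO replicate 3. Cntn2 and Hcn4 are 2 of 10 listed markers, and others ran differently. Irx3 was highest in KO replicate 1 at 63.5 CPM, and Gja5 in NLC replicate 4 at 32.6 CPM. Gjc1 varied only from 18.2 to 23.0 CPM over the 8 libraries. Of 10 conduction markers 9 were tested, none was called in KO against NLC, and all 9 had a log2 fold change below 0 in males (median -0.76). Their summed level ran from 112.5 to 141.5 CPM in KO and from 85.4 to 162.1 CPM in NLC libraries, and Isl1 was under 3 reads in every library. The part of these cells in the T-type channel values was not tested.

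**Figure D3:**
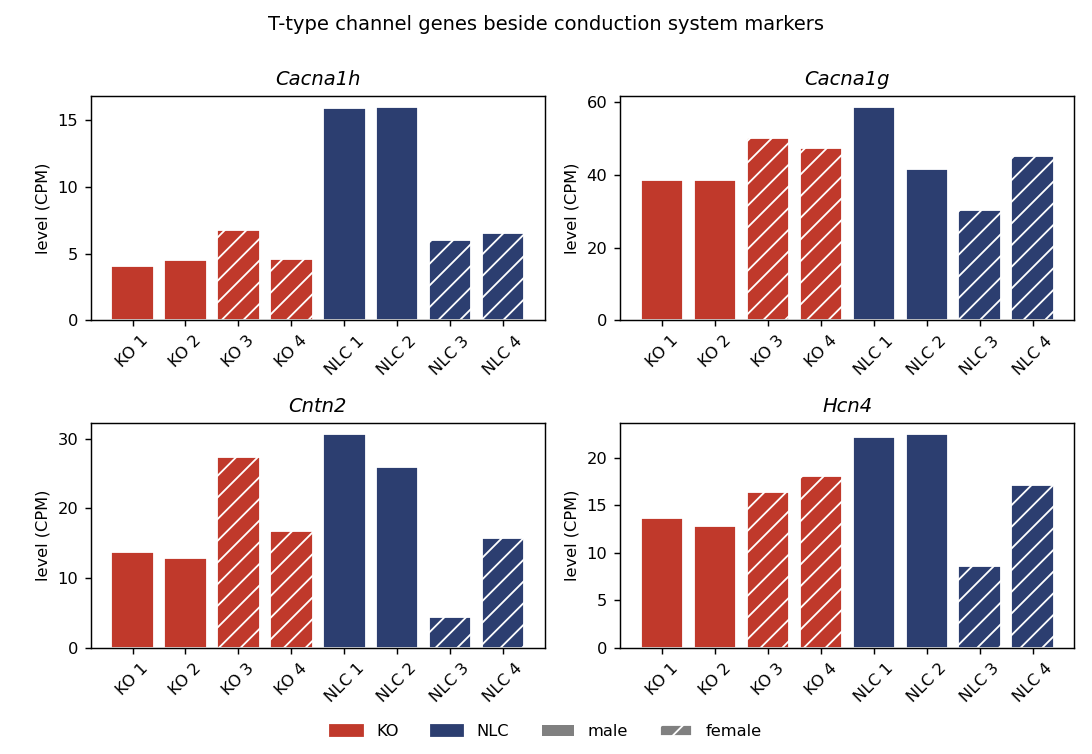
Level in CPM of the T-type channel genes Cacna1h and Cacna1g and of Cntn2 and Hcn4, 2 of 10 conduction markers, in each library. KO stands left of NLC, and female libraries are hatched. Cacna1h is at 15.9 and 16.0 CPM in the male NLC libraries and at 4.07 to 6.74 CPM in the other 6. Cntn2 and Hcn4 are lowest in NLC replicate 3.

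Cacnb2 encodes the main cardiac beta subunit, which brings the L-type pore to the membrane, on chromosome 2 at 14603088 to 14987908, plus strand. KO libraries 1 to 4 held 55.9, 55.5, 68.5 and 69.3 CPM, against 63.9, 65.8, 66.0 and 62.7 CPM in NLC libraries. The KO values split by sex on either side of the narrow NLC range. Over all libraries its log2 fold change came to -0.06 (SE 0.0742, edgeR adjusted p = 0.741), with an interval of -14.4% to 7.56% around the NLC level. With 1 library left out it ran between -0.11 (without NLC replicate 4) and -0.024 (without NLC replicate 2). It was -0.22 in males (SE 0.0776, edgeR adjusted p = 0.222) and 0.10 in females (SE 0.0774), and the difference between them had an unadjusted p of 0.0173 and an edgeR adjusted p of 0.648.

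Cacna2d1 encodes the alpha2delta-1 subunit, which raises the number of channels at the surface, on chromosome 5 at 15934691 to 16374511, plus strand. The level was 89.2, 106.4, 108.4 and 117.8 CPM in KO, against 124.7, 142.8, 95.4 and 113.3 CPM in NLC libraries. The groups overlapped through the females, and the 2 male NLC libraries were the highest of the 8. The log2 fold change over all libraries was -0.17 (SE 0.124, edgeR adjusted p = 0.575), -0.27 without NLC replicate 3, -0.076 without NLC replicate 2 and -0.059 without KO replicate 1. In males it was -0.45 (SE 0.125), with an adjusted p of 0.181 by edgeR and 0.0433 by DESeq2. In females it was 0.12 (SE 0.125), and the difference of -0.57 (SE 0.177) between the sexes had an edgeR adjusted p of 0.648.

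Slc8a1 encodes NCX1, the exchanger that extrudes most of the calcium leaving the cell in each beat, on chromosome 17 at 81373105 to 81738377, minus strand. KO libraries held 212.5, 203.5, 299.1 and 301.8 CPM, against 238.8, 274.9, 223.4 and 367.1 CPM in NLC libraries. The groups overlapped widely, and the highest single library was NLC replicate 4. This gave a log2 fold change of -0.14 (SE 0.140, edgeR adjusted p = 0.679) with an interval of -26.9% to 12.7% around the NLC level. It was -0.30 without NLC replicate 3 (edgeR adjusted p = 0.115) and -0.021 without NLC replicate 4 (edgeR adjusted p = 0.964), the lowest and the highest value with 1 library left out. Its promoter window is shown because this gene had the highest level per length (chr17:81738338-81738637, minus strand, GRCm38.p6, RefSeq), with capitals as above.
Slc8a1: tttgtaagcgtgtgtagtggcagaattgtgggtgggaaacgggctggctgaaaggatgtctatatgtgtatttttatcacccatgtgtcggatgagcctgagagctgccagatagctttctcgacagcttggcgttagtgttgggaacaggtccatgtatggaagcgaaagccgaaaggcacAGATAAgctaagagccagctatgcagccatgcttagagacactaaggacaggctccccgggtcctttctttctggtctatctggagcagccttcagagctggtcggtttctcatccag
The window holds the letters of the GATA factor motif and none of the other 3 motifs.

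Atp2b1 encodes PMCA1, the pump found in most cell types. It was measured at 39.1, 43.9, 44.3 and 46.1 CPM in KO, against 49.1, 53.4, 50.8 and 52.8 CPM in NLC libraries. Every KO library lay below every NLC library, in males and in females. The fitted log2 fold change was -0.25 (SE 0.0682, 95% interval of the change -24.4% to -6.70%) with an unadjusted p of 0.00404, which did not pass the adjustment over all genes in edgeR (adjusted p = 0.243) or DESeq2 (0.123). It was -0.31 in males (SE 0.0950) and -0.20 in females (SE 0.0948), and leaving out 1 library gave -0.28 to -0.21 over all. Endothelial markers mostly had the same sign, with 7 of 8 below 0 in KO against NLC (median -0.20), summed levels of 879.9 to 961.2 CPM in KO and 928.2 to 1120.8 CPM in NLC libraries, and none at 0 in all libraries. Emcn, an endothelial sialomucin, was measured at 39.8, 39.9, 39.5 and 37.8 CPM in KO, against 46.9, 54.3, 44.9 and 45.5 CPM in NLC libraries. Its KO libraries also all lay below its NLC libraries, as for 3.03% of all tested genes (log2 fold change -0.29, SE 0.0695, edgeR adjusted p = 0.212). Pecam1, an endothelial adhesion molecule, stood at -0.23 (SE 0.0710) and Vwf, von Willebrand factor, at -0.30 (SE 0.0815). Emcn, Vwf and Pecam1 are the endothelial markers with the smallest unadjusted p in the list. Egfl7 went the other way at 0.13 (SE 0.175), and Tie1 was near 0 at -0.036 (SE 0.0834). No endothelial marker was called. The part of endothelial cells in the Atp2b1 value was not tested. Atp2b1 lies on chromosome 10 at 98914406 to 99026143, plus strand, and its first promoter window in the RefSeq table (chr10:98914392-98914691, plus strand, GRCm38.p6) is shown as that of the other gene whose groups did not overlap.
Atp2b1: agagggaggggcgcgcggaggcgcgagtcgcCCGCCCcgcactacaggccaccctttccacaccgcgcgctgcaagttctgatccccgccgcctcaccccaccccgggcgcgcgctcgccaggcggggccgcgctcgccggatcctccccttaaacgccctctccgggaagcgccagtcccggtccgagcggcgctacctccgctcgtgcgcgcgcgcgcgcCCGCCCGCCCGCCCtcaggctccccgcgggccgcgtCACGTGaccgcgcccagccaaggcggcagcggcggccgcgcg
The window is 79.3% G or C and holds the Sp1 letters 4 times, all on the strand opposite to the one shown, and the E-box letters once.

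Atp2b4 encodes PMCA4, the pump isoform tied to nitric oxide signalling in heart muscle, on chromosome 1 at 133699457 to 133801041, minus strand. Its level was 19.6, 19.9, 20.2 and 19.0 CPM in KO, against 23.7, 23.6, 18.9 and 22.9 CPM in NLC libraries. The KO libraries were close together, and 3 NLC libraries lay above them, while NLC replicate 3 lay just below them. This came to a log2 fold change of -0.18 (SE 0.0831, edgeR adjusted p = 0.428).

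Within males, all 9 genes had a log2 fold change below 0, with a median of -0.31 (0.01 for all tested genes), and for all 9 both KO libraries lay below both NLC libraries. That separation was shown by 25.9% of all tested genes, and 48.6% had a male fold change below 0. Over all 8 libraries, 68.0% to 78.5% of genes in the span classes of the 9 were below 0. Such shares were not computed within males. By edgeR 1 of 9, Cacna1h, was called (0.0408% of all tested genes were called in either direction). By DESeq2 2 of 9, Cacna1h and Cacna2d1, were called, beside 312 of all 14695 tested genes. An unadjusted p under 0.05 was reached by 5 of 9, all lower in KO, beside 8.45% of all tested genes that were lower at that level. These counts come from the same 4 animals, so the genes do not repeat each other as evidence. In the numbers within the library names, both male KO libraries come directly before both male NLC libraries, and whether these numbers mark an order of preparation is not given in the labels.

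Within females, 5 of the 9 log2 fold changes were below 0 and 4 above it, between -0.22 for Cacna1d and 0.37 for Cacna1g, beside 52.7% of all tested genes below 0. None was called by edgeR, which called 0% of all tested genes, or by DESeq2, and 0 of 9 had an unadjusted p under 0.05, beside 5.12% of all tested genes. Both KO libraries lay below both NLC libraries for Cacna1c and Atp2b1 and above them for Cacna1g and Cacnb2, patterns shown by 17.2% and 17.1% of all tested genes. The difference between the male and female effects was called for 0 of 9 by edgeR, with 0% of all tested genes called. By DESeq2, which called 15 of all 14695 tested genes, this difference was called for 1 of 9, Cacna1h. The difference reached an unadjusted p under 0.05 by edgeR for Cacna1h, Cacna2d1, Cacnb2 and Cacna1g, 4 of 9, beside 7.46% of all tested genes.

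**Figure D4:**
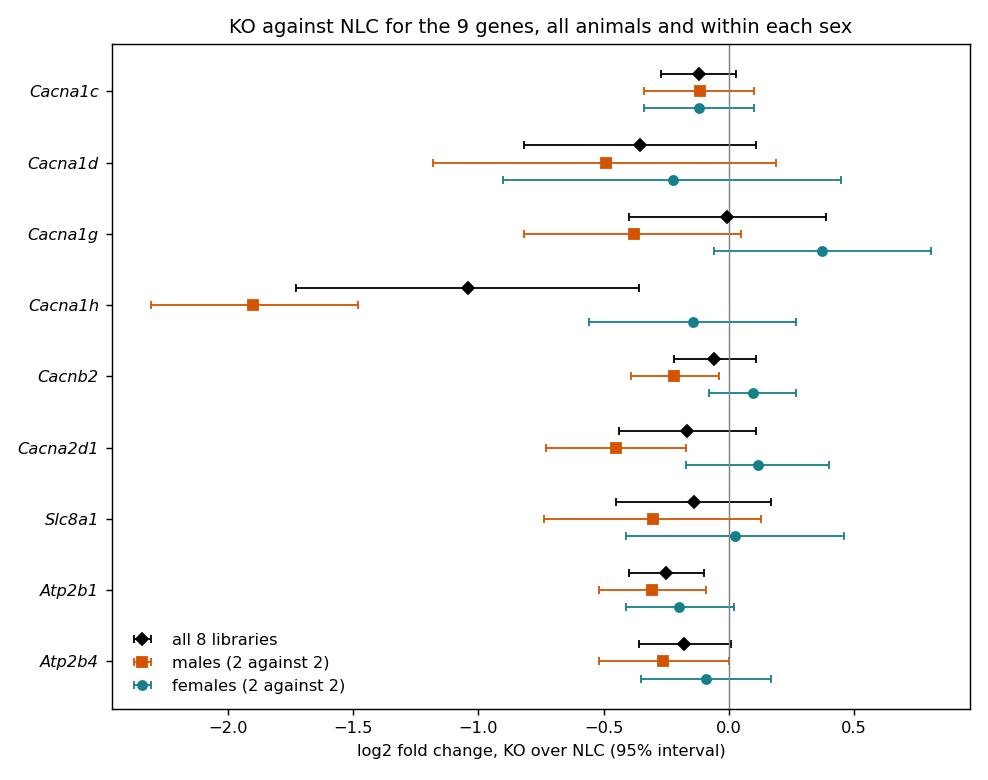
Log2 fold change of KO over NLC with its 95% interval for each of the 9 genes, over all 8 libraries (diamonds), in males (squares) and in females (circles). The male value of Cacna1h, -1.90, lies far from 0, and the intervals for Cacna1c, Cacna1d, Cacna1g and Slc8a1 cross 0 in all 3 fits.

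Male against female did not itself enter the choice of genes. It does use the male KO libraries whose low Cacna1h level was known by then. With genotype as a covariate, this contrast was called for 0 of 9 by edgeR and by DESeq2, beside 0.299% of all tested genes by edgeR. Slc8a1 alone had an unadjusted p under 0.05 (0.0259), with a log2 difference of -0.37, male minus female (SE 0.141, edgeR adjusted p = 0.326). Over all tested genes 6.04% were lower in males at that unadjusted level. Without NLC replicate 3, a female library, this difference was -0.52 with an edgeR adjusted p of 0.0137, and without NLC replicate 4, also female, it was -0.25 with an edgeR adjusted p of 0.615. The other 8 genes differed by -0.22 for Cacna1d to 0.51 for Cacna1h. The Cacna1h value joins opposite directions, with means of 16.0 CPM in male and 6.29 CPM in female NLC libraries. In KO libraries the means were 4.28 CPM in males and 5.68 CPM in females.

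The remaining genes of these families were read from fixed lists. From each list the 3 genes with the smallest p for KO against NLC are named, so groups that stand apart partly follow from that choice. Of 20 other calcium channel subunit genes 9 were tested, 4 had a KO against NLC log2 fold change below 0, and their median was 0.02. None was called in any contrast by edgeR or DESeq2, while at an unadjusted p under 0.05 Cacna1s was lower and Cacnb1 higher in KO. Cacnb1, the beta subunit best known from skeletal muscle, was measured at 14.0, 12.1, 11.6 and 9.69 CPM in KO, against 9.63, 8.0, 9.48 and 8.92 CPM in NLC libraries. KO replicate 4 lay just above NLC replicate 1, the highest NLC library (log2 fold change 0.39, SE 0.116, edgeR adjusted p = 0.292). Per kb of merged exon, Cacnb1 made up 28.7 ± 4.19% of the beta subunit level in KO and 23.0 ± 1.42% in NLC libraries. Cacnb2 made up 51.7 ± 5.67% in KO and 56.7 ± 2.73% in NLC. Such shares depend on the length used, since Cacnb2 has 13.228 kb of merged exons but a longest transcript of 5.030 kb. In the 2 male KO libraries Cacnb2 made up 45.1% and 49.4%, against 56.0% and 60.4% in the 2 male NLC libraries.

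Cacna1s was measured at 13.1, 14.4, 8.60 and 15.0 CPM in KO, against 16.3, 17.3, 17.4 and 15.8 CPM in NLC libraries. All KO libraries lay below all NLC libraries, a pattern shown by 3.03% of all tested genes. KO replicate 3 was lower by the widest margin (log2 fold change -0.39, SE 0.147, edgeR adjusted p = 0.351). Cacna2d3, an alpha2delta gene of low level here, had a log2 fold change of -1.28 (SE 0.594, edgeR adjusted p = 0.423) and its highest level, 2.18 CPM, in NLC replicate 4.

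Of 10 other exchanger and pump genes 6 were tested, 4 of them with a log2 fold change below 0 (median -0.295), and none was called by edgeR or DESeq2. Slc8a2, an exchanger best known from brain, was the one gene with an unadjusted p under 0.05. It was measured at 2.70, 2.84, 2.42 and 2.44 CPM in KO, against 1.84, 1.88, 2.26 and 2.01 CPM in NLC libraries (log2 fold change 0.38, SE 0.159, edgeR adjusted p = 0.389). Slc24a2, a potassium-dependent exchanger, stood at -0.61 (SE 0.373) and the pump gene Atp2b2 at -0.635 (SE 0.380) on the log2 scale, each with overlapping groups.

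Regulators and partners were called in no contrast either, by edgeR or DESeq2. Among 14 of 15 tested L-type channel regulators, 9 log2 fold changes were below 0 and the median was -0.01. Cav3, the muscle caveolin, was measured at 68.2, 63.0, 64.6 and 64.4 CPM in KO, against 59.7, 48.3, 57.0 and 60.2 CPM in NLC libraries (log2 fold change 0.21, SE 0.0783, edgeR adjusted p = 0.351). Prkaca, a catalytic subunit of protein kinase A, stood at 0.16 (SE 0.0771), and Akap7, an anchor of that kinase, at -0.15 (SE 0.0736).

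All 8 exchanger and pump partners were tested, with 4 log2 fold changes below 0 and a median of 0.005. Fxyd1, phospholemman, stood at 0.19 (SE 0.105) and Nptn, a pump-binding glycoprotein, at -0.075 (SE 0.0762) on the log2 scale. In the store-operated and TRP channel list 12 of 13 genes were tested, 8 were below 0 and the median was -0.07. Stim2, a calcium sensor of the endoplasmic reticulum, was measured at 13.5, 14.0, 14.2 and 14.4 CPM in KO, against 15.0, 17.9, 15.8 and 16.3 CPM in NLC libraries. Every KO library was lower, as for 3.03% of all tested genes (log2 fold change -0.21, SE 0.0808, edgeR adjusted p = 0.361). Orai1, the store-operated pore, stood at 0.19 (SE 0.101) and Trpc4, a cation channel, at -0.66 (SE 0.346).

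Most of the 9 genes are long, and long genes as a whole had lower values in KO. The median log2 fold change was 0.03 for genes spanning under 50 kb, -0.07 for 50 to 100 kb, -0.10 for 100 to 200 kb, -0.10 for 200 to 400 kb and -0.16 for 400 kb or more. Cacna1c (609.2 kb), Cacna2d1 (439.8 kb), Cacnb2 (384.8 kb) and Slc8a1 (365.3 kb) had fold changes of -0.12, -0.17, -0.06 and -0.14, near the medians of their span classes. Atp2b1 (111.7 kb) at -0.25, Atp2b4 (101.6 kb) at -0.18 and Cacna1d (451.5 kb) at -0.36 lay below theirs. Cacna1h (59.5 kb) lay far below the median of its class, and Cacna1g (65.8 kb) above it. The part of gene span in these values was not tested.

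**Figure D5:**
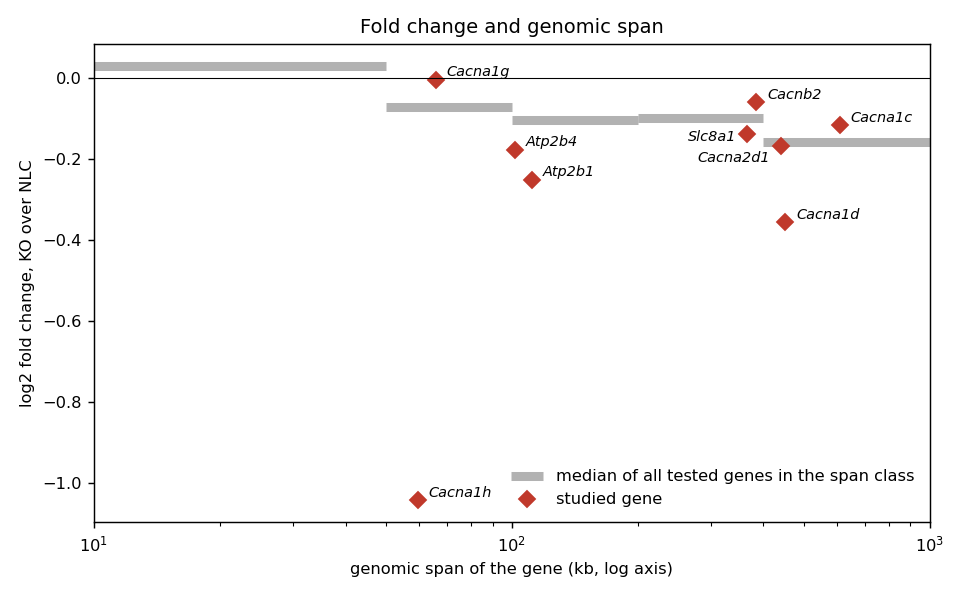
Log2 fold change of KO over NLC against genomic span (log axis from 10 kb) for the 9 genes (diamonds), with grey bars for the median of all tested genes in each span class. The class medians run from 0.03 under 50 kb to -0.16 at 400 kb or more, and Cacna1h stands apart at -1.04.

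The genes whose levels ran most like those of 3 of the 9 over the 8 libraries were found by Pearson's r of log2 CPM among 12099 genes. For Cacna1h these were Scube2 (0.973), Pacsin2 (0.972), Slc16a13 (0.941), Heatr5b (0.936) and Cx3cr1 (0.934). Pacsin2, a membrane-bending protein, was measured at 216.1, 212.1, 232.4 and 218.5 CPM in KO, against 257.8, 259.6, 216.4 and 225.1 CPM in NLC libraries, with the 2 male NLC libraries highest as for Cacna1h. For Cacna1g they were P3h4 (0.926), Pcdhga6 (0.921), Abcd2 (0.900), Tpp1 (0.897) and Glb1 (0.886). For Atp2b1 they were Dennd5b (0.973), Ctnna3 (0.970), Zbtb38 (0.969), Xiap (0.969) and Vps37a (0.966). Ctnna3, a catenin of the intercalated disc, was measured at 8.62, 9.65, 12.8 and 13.7 CPM in KO, against 18.7, 22.4, 19.9 and 23.2 CPM in NLC libraries. With 8 libraries that differ in depth and in the levels of cell type markers, the highest of so many correlations are a description only.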

How the data were processed

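Left ventricle mRNA of 8 mice was sequenced, with stranded libraries per the labels' protocols. What the authors deposited is 1 table per library of unnormalized read counts for each gene. The submitters' processing notes name STAR, HTSeq, DESeq2 and the build GRCm38. The annotation release, the strand setting and all versions are not stated there or in the labels. Summary entries that name no gene, with 16.8% to 20.3% of all tallied reads multiply mapped, 3.07% to 4.08% outside genes and 1.26% to 1.38% ambiguous, stayed out of library sizes and tests.

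Symbols, spans and exon lengths came from GENCODE M21 (GRCm38), where 55227 identifiers had a symbol. In R 4.3.3, edgeR 4.0.16 (filterByExpr by genotype, TMM, glmQLFit and glmQLFTest) compared KO with NLC with sex as an additive term, and a second fit, with a mean for each genotype in each sex, gave the contrasts within males, within females and between them. Benjamini-Hochberg adjustment ran over all tested genes, with a threshold of 0.05. SE is the fold change divided by the root of the F statistic. CPM used TMM-scaled library sizes. The fits were tested on simulated counts. Alternatives were DESeq2 1.42.0, RLE scaling, removal of mitochondrially encoded genes, no filter, at least 1 CPM in 4 libraries, no sex term, a replicate block and each library left out.

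The genes and lists were chosen with earlier results of these data known. Named were the 9 genes, any called gene of a further list, its 3 genes with the smallest p for KO against NLC, and the 5 genes of at least 1 CPM most like Cacna1h, Cacna1g and Atp2b1. A gene that this rule names is not reported here. The labels call the samples biological replicates. Libraries within a group differed by more than sampling noise (chi-square per degree of freedom 15.3 to 41.7). The bound of 3 counts covers counting error only.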

Additional observations from a re-analysis of the deposited data

Results flagged for a closer look

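Cacna1h had different KO against NLC effects in males and females by DESeq2, with a difference of -1.76 on the log2 scale (male minus female, adjusted p = 0.000269), while edgeR gave -1.75 with an adjusted p of 0.363. Its level was 4.07 and 4.50 CPM in male KO, against 15.9 and 16.0 CPM in male NLC libraries, and 6.74 and 4.62 CPM in female KO, against 6.04 and 6.54 CPM in female NLC libraries. For this difference DESeq2 called 15 of all 14695 tested genes and edgeR called 0. Each sex holds 2 libraries per genotype.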

How the results depend on the processing

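Of 603 alternative values for the 9 genes, 568 kept direction and side of the threshold, 21 changed sign, 10 newly passed and 4 no longer passed, the last all for Cacna1h in males with 1 male library left out. Genes called in KO against NLC numbered 15, but 148 by DESeq2, 621 with no filter, 6 with no sex term, 0 with the replicate block and 0 to 50 with 1 library left out. In males 6 became 312 by DESeq2, 1007 with no filter and 0 to 59 with 1 library left out. In females 0 became 17, 277 and 0 to 81, for the sex by genotype difference 0 became 15, 243 and 0 to 8, and for male against female 44 became 232, 742 and 16 to 176 in the same order. Without NLC replicate 3 the KO against NLC count was 50 and the male against female count 176, and without NLC replicate 4 the male count was 59 and the female count 81. RLE scaling and removal of mitochondrially encoded genes left the 5 counts as they were. With no filter 1 of the 9 genes, Cacna1h, was called in KO against NLC (adjusted p = 4.82e-11). By the longest transcript 5 of the 9 changed rank in level. The Cacna1c sex difference of 0.003 was -0.0049 without mitochondrial genes, -0.0074 with no filter and -0.11 to 0.12 with 1 library left out. Cacna1g in KO against NLC was 0.016 with the replicate block and -0.19 to 0.17 with 1 library left out. Leaving out 1 library also spanned 0 for Cacna1g in male against female (-0.15 to 0.12), Cacna1d in females (-0.60 to 0.29) and its sex difference (-0.78 to 0.11), Cacna1h in females (-0.44 to 0.10), Cacna2d1 in females (-0.0009 to 0.25) and male against female (-0.033 to 0.18), Slc8a1 in females (-0.29 to 0.43) and Atp2b4 in females (-0.22 to 0.054). The causes were not tested. The main fits did not treat replicate numbers as pairs. Same-numbered libraries correlated at 0.335, 0.191, -0.213 and 0.122 in their deviations from the group means, and not every library matched its own number best. Sex was not removed from these deviations, and same-numbered libraries share their sex. The correlations therefore cannot show or exclude pairing. Each sex holds 2 libraries per genotype, and Cacna1d rests on 59 to 112 reads a library.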
